A study of Mus musculus with 12 samples.

Results

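B lymphocytes carry antibody on their surface as the B cell receptor and, once activated, can become plasma cells, which secrete antibody. The 9 genes described here mark these stages. Cd79a, Cd79b, Ms4a1, Pax5 and Cd22 are B cell genes, Jchain, Mzb1 and Tnfrsf17 are plasma cell genes, and Pou2af1 is used at both stages. They were chosen by name, as genes whose identifiers in the counts of lung tumour and adjacent lung map to these symbols in the GENCODE M21 annotation of mouse build GRCm38. All 9 were found among the 56262 identifiers of the lung table, and all 9 stood among the 19995 genes with enough counts to be tested.

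The lung samples came from 3 C57BL/6 mice, numbered 102, 217 and 224, whose T cells lack Med23, part of the Mediator complex that connects transcription factors with RNA polymerase. From each mouse at 18 months of age a lung tumour and adjacent normal lung tissue were sequenced, so the adjacent controls carry the deletion too and no lung of an undeleted mouse was compared. Alveolar type 2 (AT2) cells, the surfactant-producing epithelial cells of the alveolus, came from 3 wild-type C57BL/6 mice (176, 177 and 190) and 3 mice with Med23 deleted in T cells (175, 179 and 191), all at 6 months of age. The driver of the deletion is not given in the sources used here.

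A developing B cell is committed to its lineage by the transcription factor Pax5. Pax5 switches on genes of the receptor and its co-receptors, among them that of the signalling chain Cd79a. When a B cell becomes a plasma cell, Pax5 and the surface receptor genes are turned down, and the genes for antibody folding, joining and secretion are turned up. Plasma cells of airway and gut tissue make mostly IgA, which the joining chain (Jchain) links into polymers for transport across the epithelium. B cells enter lung tissue from blood vessels and can gather around airways, while long-lived plasma cells persist with the help of survival factors from neighbouring cells.

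Total counts were 65163100 to 77951014 in the 6 lung libraries and 15943084 to 18913242 in the 6 AT2 libraries. In the lung table, the first principal component held 52.9% of the variance and separated tumour from adjacent tissue. The second held 21.3% and set both libraries of mouse 217 (-76.7 and -126) apart from the other 4 (32.2 to 60.6), so results were also computed without that mouse. Among AT2 libraries, wild-type 177 stood apart (64.6 on the first component, against -14.6 to -11.3 for the other 5). Med23, measured in whole tissue or AT2 cells rather than in T cells, had a mean of 27.0 CPM (counts put on 1 common library size) in tumour, 27.5 in adjacent lung, 44.7 in AT2 cells with the deletion in T cells and 40.3 in wild-type AT2 cells, which does not check a deletion in T cells. AT2 markers (6 genes, led by surfactant genes) summed to 124200 to 160200 CPM in the AT2 libraries, 18930 to 39210 in adjacent lung and 64320 to 219800 in tumour.

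The DNA before a RefSeq start of each gene shows which letters known to bind B lineage factors stand there. RefSeq promoter entries (build GRCm38.p6) were found for 6 of the 9 genes, and Cd79b, Ms4a1 and Mzb1 had none. These starts can differ from the gene starts of GENCODE given with each gene: that of Cd79a (24897497) lies 116 bases inside the gene and that of Cd22 (30879028) 1314 bases inside it, an internal start. In the 250 bases before each RefSeq start, 3 motifs were searched on both strands: the octamer ATGCAAAT, to which the partners of Pou2af1 bind, the E box CAGGTG, and the palindrome of early B cell factor (TCCC and GGGA with any 2 bases between them). The E box stood in Cd79a (first base 154 before its RefSeq start, 38 before the GENCODE gene start) and on the reverse strand of Cd22 (245 before its RefSeq start), against 17.2% of 32851 promoters of the same length. The palindrome stood in Cd22 (49 before its RefSeq start, 1265 inside the GENCODE gene), against 0.779% of promoters. The octamer stood in 0 of the 6, against 1.60% of promoters. The motifs do not overlap one another in these windows, and a match describes letters only. Shown are the exon-free stretches of Cd79a and Cd22, with the match in capitals (the Cd22 E box lies outside its stretch), and, as the plasma cell counterpart, Jchain, which had no match. They lie at chr7:24897247-24897380 on the plus strand, chr7:30879029-30879176 on the minus strand and chr5:88527898-88528147 on the minus strand.
Cd79a: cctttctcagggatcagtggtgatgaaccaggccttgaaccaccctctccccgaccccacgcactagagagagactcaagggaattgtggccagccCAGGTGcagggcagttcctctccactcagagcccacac
Cd22: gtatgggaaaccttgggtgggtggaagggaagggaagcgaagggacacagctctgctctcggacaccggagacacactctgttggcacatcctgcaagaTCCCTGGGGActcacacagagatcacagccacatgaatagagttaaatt
Jchain: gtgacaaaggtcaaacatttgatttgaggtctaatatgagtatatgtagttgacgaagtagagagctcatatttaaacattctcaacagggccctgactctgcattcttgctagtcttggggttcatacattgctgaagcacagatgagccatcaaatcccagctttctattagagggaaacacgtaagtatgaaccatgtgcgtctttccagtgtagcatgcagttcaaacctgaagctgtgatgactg

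Of the 9 genes, 2 passed the test between tumour and adjacent lung (adjusted p under 0.05 in edgeR's quasi-likelihood test), and both, Pax5 and Cd22, were lower in tumour. None was higher. Among all 19995 genes tested, 10.0% passed, 7.18% lower and 2.86% higher. With the mouse as a block, again 2 of the 9 passed, now Ms4a1 and Pax5, against 14.9% of all genes (9.34% lower and 5.57% higher). At an unadjusted p under 0.05, 5 of the 9 stood, against 24.0% of all genes, and DESeq2 called 5, against 15.8%. The median log2 fold change of the 9 genes was -2.62, against 0.04 for all genes tested. In bulk samples, fewer cells of a type and less RNA per cell cannot be told apart. For 5 of the 9 genes every tumour lay below every adjacent sample (18.9% of all genes did so), and 6 of the 9 were lower in the tumour of each of the 3 mice (29.3% of all genes were, and 28.2% were higher in each).

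**Figure D1:**
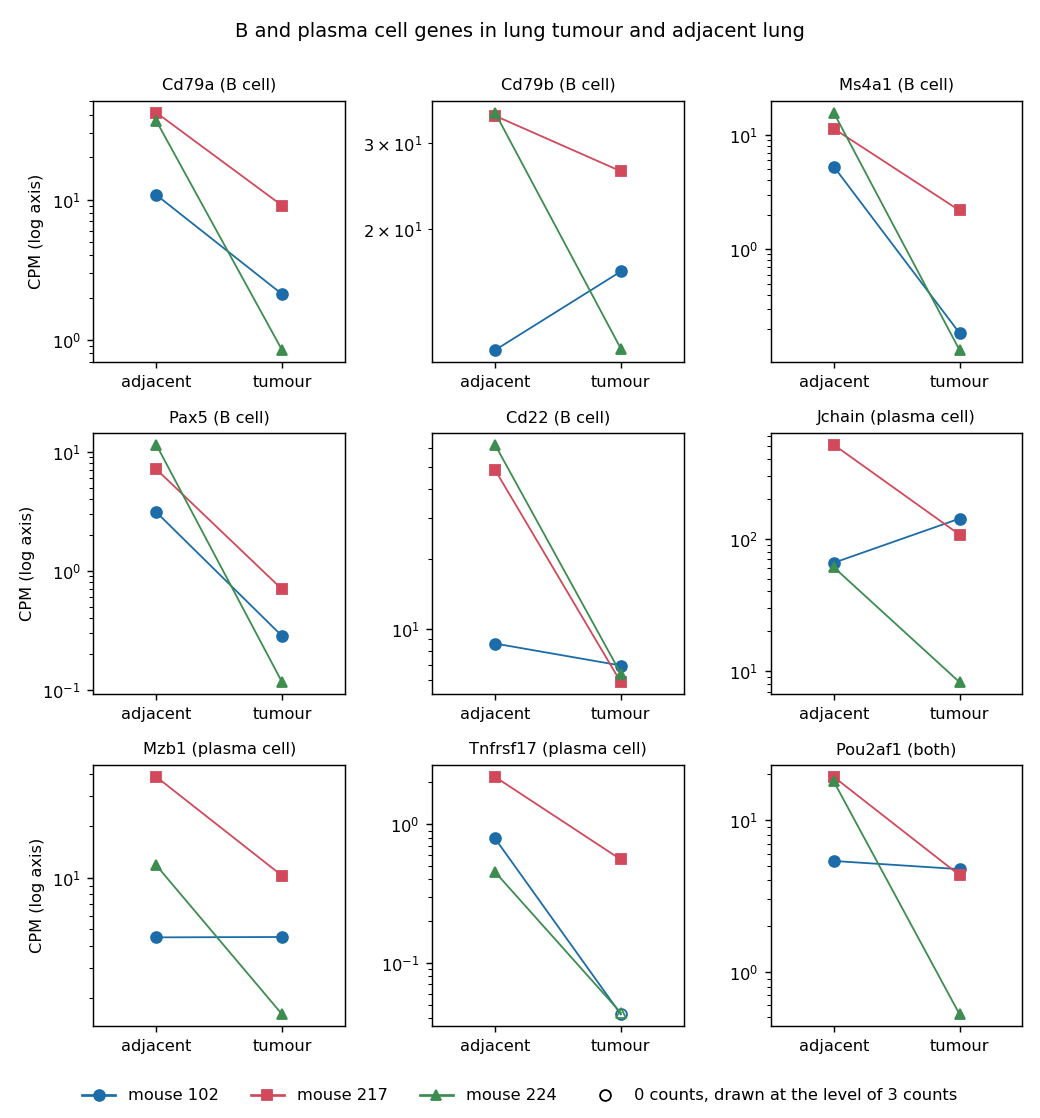
Level of each of the 9 genes in CPM (log axis, its range differing between panels) in adjacent lung and tumour, with a line joining the samples of 1 mouse; open symbols are libraries with 0 counts, drawn at the level of 3 counts. Cd79a, Ms4a1, Pax5, Cd22 and Pou2af1 have all 3 tumours below all 3 adjacent samples, while Cd79b and Jchain are higher in the tumour of mouse 102.

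Pax5 (ENSMUSG00000014030, chr4:44524757-44710487, minus strand), the factor that commits cells to the B lineage, fell in tumour. Its level was 3.11, 7.12 and 11.4 CPM in the adjacent lung of mice 102, 217 and 224, and 0.284, 0.700 and 0.117 CPM in their tumours. Every tumour lay below every adjacent sample, and within a mouse the tumour was 10.9, 10.2 and 97.9-fold lower. The log2 fold change in edgeR was -4.29 ± 0.85 (SE), a 19.6-fold lower level, and the adjusted p was 0.0235 (0.0352 in the blocked fit). The call rested on several libraries: the adjusted p was 0.0585 without adjacent 217, 0.0800 without adjacent 224, 0.0847 without tumour 102, 0.0582 without tumour 224 and 0.0552 without both libraries of mouse 217. Exons of antisense and unclassified transcripts overlap Pax5 over 1.41% and 7.18% of its exon bases.

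Cd22 (ENSMUSG00000030577, chr7:30865402-30880342, minus strand), an inhibitory co-receptor that dampens signals from the B cell receptor, also fell. Adjacent lung held 8.64, 48.4 and 62.1 CPM, and the tumours held 6.95, 5.89 and 6.41 CPM, in the same order of mice. The tumours were alike, and adjacent lung of mouse 102 stood only just above them, with a within-mouse difference of 1.24-fold there against 8.22 and 9.68-fold in the other mice. In edgeR the log2 fold change was -2.63 ± 0.66 and the adjusted p 0.0456. It did not pass in the blocked fit (adjusted p = 0.0954), with no filter on low counts (0.0549), without both libraries of mouse 217 (0.199), or without any single library but adjacent 102 (0.0947 to 0.142). An antisense transcript, Gm29439, shares 9.50% of its exon bases, and reads of the 2 strands cannot be told apart here.

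Ms4a1 (ENSMUSG00000024673, chr19:11249675-11266241, minus strand) encodes CD20, a surface protein of B cells that plasma cells lack. Its level was 5.27, 11.3 and 15.6 CPM in adjacent lung and 0.185, 2.18 and 0.131 CPM in tumour. All tumours lay below all adjacent samples. Tumours 102 and 224 held only 13 and 9 counts, and tumour 217 held 137. Within a mouse the tumour was 28.5, 5.20 and 119-fold lower. Its log2 fold change, -3.69 ± 1.13, did not pass (edgeR adjusted p = 0.0843). In the blocked fit it was -4.61 ± 1.04 and passed (blocked adjusted p = 0.0482).

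Cd79a (ENSMUSG00000003379, chr7:24897381-24902197, plus strand) encodes the alpha signalling chain of the B cell receptor and is kept in plasma cells more than CD20 is. Adjacent lung held 10.8, 41.6 and 36.3 CPM, and tumour 2.12, 9.06 and 0.845 CPM. The groups did not overlap, and the tumour was 5.09, 4.59 and 43.0-fold lower within a mouse. The log2 fold change of -2.88 ± 0.92 did not pass (edgeR adjusted p = 0.0927, and 0.0557 in the blocked fit).

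Cd79b (ENSMUSG00000040592, chr11:106311341-106314762, minus strand) encodes the beta chain, which pairs with the product of Cd79a. It gave another picture, with 11.3, 34.1 and 34.6 CPM in adjacent lung and 16.3, 26.2 and 11.3 CPM in tumour. The groups overlapped. Within mouse 102 the tumour was 1.45-fold higher, and in mice 217 and 224 it was 1.3 and 3.05-fold lower. Between the groups the log2 fold change was -0.57 ± 0.51 (edgeR adjusted p = 0.586), the smallest in size of the 9 genes.

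Pou2af1 (ENSMUSG00000032053, chr9:51213708-51240080, plus strand) encodes a coactivator of octamer-binding factors that B cells need for germinal centres and that plasma cells also use. Levels were 5.37, 19.2 and 17.9 CPM in adjacent lung and 4.75, 4.33 and 0.525 CPM in tumour. All tumours lay below all adjacent samples, but in mouse 102 by 1.13-fold only, against 4.44 and 34.2-fold in mice 217 and 224. The log2 fold change was -2.15 ± 0.84 and did not pass in edgeR (adjusted p = 0.167), whereas DESeq2 gave an adjusted p of 0.0464.

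None of the 3 plasma cell genes passed in edgeR, with or without the mouse as a block, nor in DESeq2, and 0 of the 3 had an unadjusted p under 0.05. Jchain (ENSMUSG00000067149, chr5:88519809-88527891, minus strand), the chain that joins IgA and IgM units into polymers, held 65.8, 513 and 60.9 CPM in adjacent lung and 142, 107 and 8.24 CPM in tumour. The adjacent lung of mouse 217 was far above all others, and the groups overlapped. The tumour was 2.16-fold higher in mouse 102 and 4.78 and 7.39-fold lower in mice 217 and 224. The log2 fold change was -1.31 ± 1.11 (edgeR adjusted p = 0.557), and its sign turned without adjacent 217 (0.44) and without both libraries of mouse 217 (0.19).

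Mzb1 (ENSMUSG00000024353, chr18:35647267-35649367, minus strand), a chaperone of the endoplasmic reticulum that helps assemble antibody, held 4.50, 38.6 and 11.8 CPM in adjacent lung and 4.52, 10.3 and 1.60 CPM in tumour. Mouse 102 had almost the same level in both tissues, and the tumours of mice 217 and 224 were 3.76 and 7.36-fold lower. Over both groups the log2 fold change was -1.74 ± 0.90 (edgeR adjusted p = 0.298). SPATA24, on the same strand, shares 57.2% of the exon bases of Mzb1, so reads there may belong to either gene.

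Tnfrsf17 (ENSMUSG00000022496, chr16:11313812-11320074, plus strand) encodes BCMA, the receptor through which plasma cells receive survival signals. It had the lowest counts of the 9 genes: 63, 164 and 34 in adjacent lung and 0, 35 and 0 in tumour, or 0.789, 2.19 and 0.452 CPM against 0, 0.557 and 0 CPM. Tumour 217 overlapped the adjacent samples. Against a floor of 3 counts per library, the tumour was at least 18.5-fold lower in mouse 102 and at least 10.3-fold lower in mouse 224, and it was 3.94-fold lower in mouse 217. The log2 fold change was -2.62 ± 1.73 (edgeR adjusted p = 0.430). Only without tumour 217, the single tumour with counts, did it pass (adjusted p = 0.0303).

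Taken as class means of log2 CPM, the B cell genes were lower in tumour by more than the plasma cell genes in each mouse. The 2 classes were not tested against each other. The mean log2 CPM of the 5 B cell genes differed between tumour and adjacent lung by -2.02, -2.25 and -4.64 in mice 102, 217 and 224 (-2.97 ± 1.45, SD, n = 3 mice). For the 3 plasma cell genes the differences were -1.25, -2.03 and -3.28 (-2.19 ± 1.02). The plasma cell mean minus the B cell mean therefore shifted by 0.763, 0.223 and 1.35, or 0.78 ± 0.57 on the log2 scale. The negative plasma cell value of mouse 102 came from Tnfrsf17 (63 counts in adjacent lung and 0 in tumour), so its size depended on the prior count. In that tumour Jchain was 2.16-fold higher, Mzb1 was level, and the summed CPM of the 3 plasma cell genes was higher than in adjacent lung. As mean log2 CPM the shift was positive in all 3 mice and varied over several-fold between them. Its mean was 0.39 with a prior count of 0.5 and 0.43 from summed CPM (-1.79 for the B cell class and -1.36 for the plasma cell class). From summed CPM the shift was negative in mouse 217, where Jchain, most of the plasma cell sum, was 4.78-fold lower in tumour. The mean shift of log2 CPM became 1.86 when Cd79b and Cd22 were left out of the B cell class, a choice made after their values were seen. The tumour of mouse 224 was the lowest library in both classes.

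**Figure D2:**
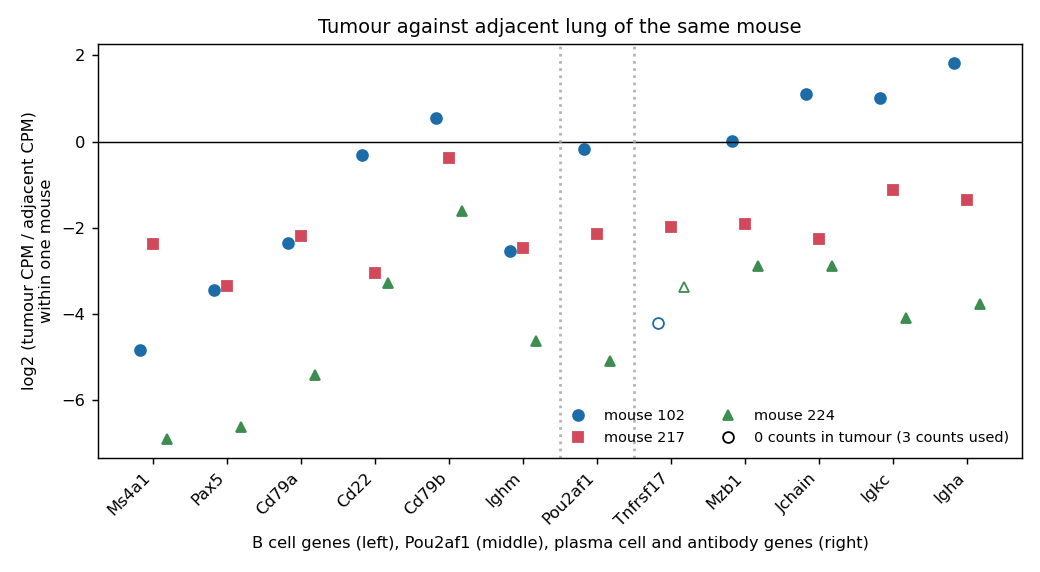
The log2 ratio of tumour CPM to adjacent CPM within each mouse, for B cell genes (left of the first dotted line, with Ighm), Pou2af1 (between the lines) and plasma cell and antibody genes (right); open symbols had 0 counts in tumour and use 3 counts. Jchain, Igkc and Igha are above 0 in mouse 102 and below 0 in mice 217 and 224, and Ms4a1 and Pax5 are below 0 in all 3.

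Levels were compared between genes as CPM per kilobase of merged exon length. In adjacent lung Jchain stood first (84.8 ± 103 CPM per kilobase, SD, n = 3), a mean raised by mouse 217 (204, against 26.2 and 24.2 in mice 102 and 224), and in mouse 224 Cd79a (24.9) was above it. It was followed by Cd79a (20.3 ± 11.3), Cd79b (18.6 ± 9.32) and Mzb1 (15.1 ± 14.8), which do not differ beyond their spread. Cd22 (7.87 ± 5.50) and Pou2af1 (5.57 ± 3.01) came next, also within their spread, and then Ms4a1 (1.74 ± 0.84), Tnfrsf17 (1.41 ± 1.13) and Pax5 (0.815 ± 0.469). In tumour Jchain again had the highest mean (34.1 ± 27.6), although Cd79b was above it in mouse 224 (7.92 against 3.27), and the mean of Cd79b (12.6 ± 5.30) stood second, within that spread, ahead of Mzb1 (4.50 ± 3.63) and Cd79a (2.75 ± 3.03). Cd22 (1.27 ± 0.105) and Pou2af1 (1.26 ± 0.913) were level, and Tnfrsf17 (0.228 ± 0.395), Ms4a1 (0.135 ± 0.189) and Pax5 (0.0415 ± 0.0339) were lowest.

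The 2 chains of the receptor's signalling pair were near parity in adjacent lung and apart in tumour. Cd79b over Cd79a, per kilobase, was 1.06, 0.835 and 0.970 in adjacent lung and 7.85, 2.95 and 13.7 in tumour of mice 102, 217 and 224. The groups did not overlap. AT2 cells also held Cd79b without matching Cd79a: the ratio was 9.58, 32.0 and 13.5 in wild-type mice 176, 177 and 190 and 6.89, 17.4 and 9.64 in deleted mice 175, 179 and 191. These AT2 values come from another table and were not tested against lung. They rest on 17 to 43 Cd79a counts per library, with 17 in wild-type 177, and the ratio of tumour 224 rests on 58.

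**Figure D3:**
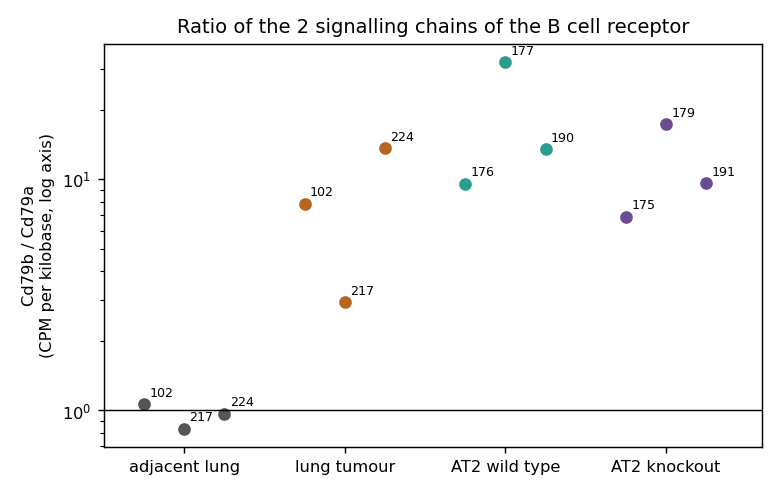
Ratio of Cd79b to Cd79a in CPM per kilobase (log axis) in each library, labelled by mouse; the line marks a ratio of 1. Adjacent lung lies at 0.835 to 1.06, tumour at 2.95 to 13.7 and AT2 cells at 6.89 to 32.0, the AT2 ratios resting on 17 to 43 Cd79a counts per library.

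In AT2 cells, Cd79b stood at 21.6, 30.7 and 20.5 CPM in wild-type mice 176, 177 and 190 and at 17.0, 19.7 and 20.6 CPM in deleted mice 175, 179 and 191. This is within the range of lung tumour and adjacent lung. The difference between the AT2 groups, a log2 fold change of -0.35 ± 0.19, did not pass (edgeR adjusted p = 0.984). The other 8 genes were at or under 2.57 CPM in every AT2 library. Cd79a lay between 0.975 and 2.51 CPM, Pax5 between 0.115 and 2.57 CPM, and Jchain had a mean of 0.225 CPM. Of these 8, only Pax5 had a higher mean in AT2 cells (1.18 CPM) than in tumour (0.367 CPM), under that of adjacent lung (7.21 CPM). Markers of all leukocytes (5 genes: Ptprc, Coro1a, Laptm5, Cd52 and Cd53) summed to 7.74 to 29.7 CPM in AT2 cells and 299 to 1378 CPM in lung. The part that AT2 cells had in the Cd79b of tumour was not tested.

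Of the 9 genes, 5 (Cd79a, Cd79b, Pax5, Cd22 and Mzb1) had enough counts to be tested between AT2 cells of wild-type mice and of mice with Med23 deleted in T cells. None passed in edgeR (adjusted p 0.984 to 0.989) or DESeq2, and 0 of the 5 had an unadjusted p under 0.05. Among the 14053 genes tested there, 0 passed in edgeR (a share of 0%), with 347 at an unadjusted p under 0.05, and DESeq2 called 1.

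The other genes of the pathway were taken from lists. Over all genes tested, 7.18% fell and 2.86% rose in tumour, and with the mouse as a block 9.34% fell and 5.57% rose. In either direction, 15.8% of all genes were called by DESeq2 and 2.88% to 8.74% with 1 library left out. Without both libraries of mouse 217 the share was 4.13%. Of 21 genes of the B cell receptor and its co-receptors, 8 fell in tumour, 0 rose and 13 did not pass, with a median log2 fold change of -1.43. With the mouse as a block 5 fell, and 0 to 5 fell when any 1 library was left out. None fell without both libraries of mouse 217. Cr2, a complement receptor of B cells that lowers their threshold for activation, fell by 3.26 ± 0.71 on the log2 scale (edgeR adjusted p = 0.0299). Lyn, a kinase next to the receptor that myeloid cells also use, fell by 1.42 ± 0.30 (adjusted p = 0.0277). With 1 library left out, Cr2 kept its call only without tumour 217 (otherwise 0.0725 to 0.107) and Lyn only without tumour 102 (otherwise 0.0543 to 0.113).

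Among 10 B cell transcription factors 1 fell, Ikzf3, with a log2 fold change of -2.22 ± 0.49 (edgeR adjusted p = 0.0310), a call lost without any 1 of the 6 libraries (0.0562 to 0.114). The count of 1 is near the share of all genes that fell (7.18%). The median of the 10 was -1.32, and DESeq2 called 4 lower. Of 7 germinal centre genes, which mark sites where B cells mutate and select their antibody, 1 fell (median -2.05). That gene, Rgs13, a regulator of chemokine receptor signals, was named after its values were seen: it had 0 counts in the tumours and 64 in adjacent lung, at least 18.6-fold lower against a floor of 3 counts over the group (adjusted p = 0.0361). Rgs13 did not pass in the blocked fit (0.111) or when any 1 library was left out (0.0645 to 0.128), and no other germinal centre gene passed in these fits. Of 2 tested genes of the surrogate light chain and recombination list of 6, Vpreb3 fell, from 19.0, 22.8 and 13.9 CPM in adjacent lung to 0.256, 1.78 and 0.0875 CPM in tumour (log2 fold change -4.71 ± 1.06, adjusted p = 0.0334). In the AT2 table its mean was 13.9 CPM. The call was lost without any 1 library but tumour 217 (0.0556 to 0.103).

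The plasma cell programme did not move one way. Of 17 genes 2 rose, 1 fell and 14 did not pass, with a median log2 fold change of -0.07. Over all genes 2.86% rose and 7.18% fell, so the count of 1 lower is near that share. DESeq2 called 4 lower and 2 higher, against 15.8% of all genes in either direction. At an unadjusted p under 0.05 in edgeR, 5 were lower and 3 higher, against 24% of all genes. In the blocked fit 2 rose and 1 fell, Cd27 (blocked edgeR adjusted p = 0.0255), which was named after its values were seen. Sdc1 (syndecan-1, used as a plasma cell marker and also an epithelial surface proteoglycan) had 241, 252 and 293 CPM in adjacent lung and 1024.0, 609 and 876 CPM in tumour (log2 fold change 1.67 ± 0.34, edgeR adjusted p = 0.0250). Cd38 encodes a surface enzyme that is not particular to plasma cells. Its levels were 34.6, 45.5 and 40.0 CPM in adjacent lung and 117, 238 and 151 CPM in tumour. The log2 fold change of Cd38 was 2.07 ± 0.36 (edgeR adjusted p = 0.0155). Slamf7, a surface receptor of plasma and natural killer cells, fell by 2.02 ± 0.48 (adjusted p = 0.0389, and 0.0621 in the blocked fit). Slamf7 kept its call, of single libraries, only without adjacent 102 (otherwise 0.0714 to 0.139). Sdc1 lost its call without any 1 library but tumour 217 (0.0706 to 0.0887), and Cd38 lost it without adjacent 102 (0.0598) or adjacent 224 (0.0664). In AT2 cells the mean of Sdc1 was 878 CPM and that of Cd38 was 1.52 CPM, far under its level in tumour, and 13 of the 17 genes had at least 1 CPM there. Summed AT2 markers were higher in every tumour than in any adjacent sample (2 of 6 passed, 0 to 2 with 1 library left out, and 5 of 6 in the blocked fit). Their part in the values of Sdc1 was not tested.

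**Figure D4:**
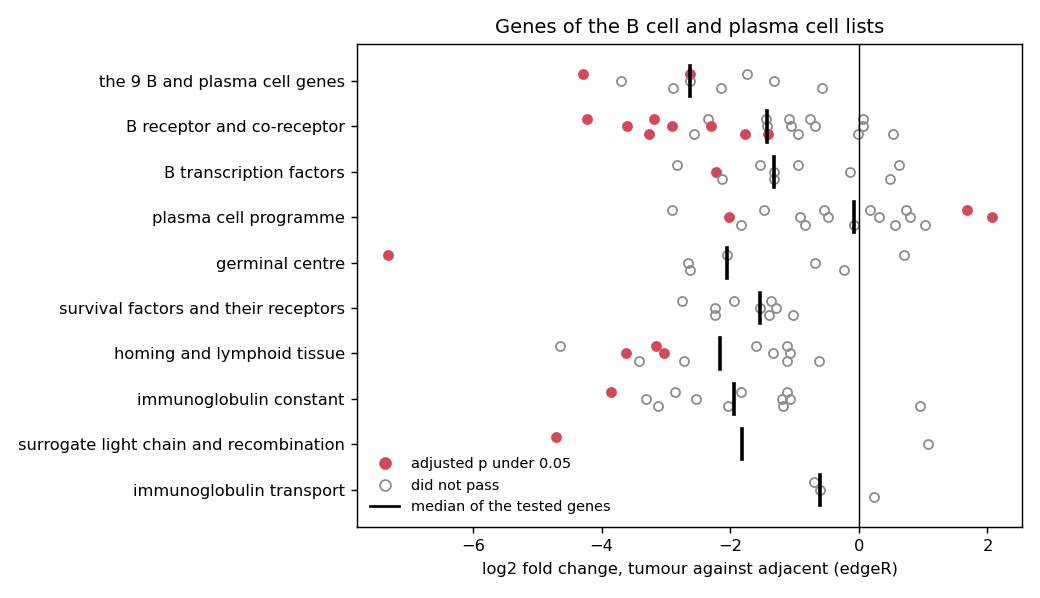
Log2 fold change of tumour against adjacent lung for every tested gene of the 9 and of each list, red where the adjusted p was under 0.05 and grey open where it did not pass; the bar is the median. The 9 genes have a median of -2.62, the plasma cell programme -0.07 with 2 genes that rose, and the fitted value of Rgs13, the farthest to the left, is no bound because its tumours hold 0 counts.

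Of 12 immunoglobulin constant genes 1 fell and none rose (median log2 fold change -1.93), and 3 fell with the mouse as a block. The count of 1 is near the share of all genes that fell (7.18%, and 9.34% with the block). Ighd, the IgD chain of resting B cells, had 7.90, 15.0 and 34.4 CPM in adjacent lung and 1.59, 1.40 and 0.947 CPM in tumour (-3.86 ± 0.63, edgeR adjusted p = 0.0142). Its call was lost without tumour 102 (0.0507), tumour 224 (0.0513) or both of mouse 217 (0.0637). Ighm, the IgM chain, had 97.6, 608 and 608 CPM in adjacent lung and 16.7, 109 and 24.6 CPM in tumour. It did not pass (-3.13 ± 0.93, adjusted p = 0.0782) but did with the mouse as a block (0.0250), as did Iglc3 (0.0253).

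Igha, the IgA chain, resembled Jchain: 187, 2962 and 804 CPM in adjacent lung and 662.5, 1155 and 59.2 CPM in tumour. It was 3.54-fold higher in the tumour of mouse 102 and lower in the other 2 mice (log2 fold change -1.07 ± 1.14, edgeR adjusted p = 0.659). Igkc, the kappa light chain, had 186, 3492 and 721 CPM in adjacent lung and 371, 1610.0 and 42.2 CPM in tumour (-1.12 ± 1.31, adjusted p = 0.693). Igha over Ighm, per kilobase, was 1.35, 3.45 and 0.935 in adjacent lung and 28.1, 7.48 and 1.70 in tumour, higher in the tumour of each mouse though the groups overlapped. The IgG, IgE and other lambda chains did not pass in either fit. Ighg1 had 3.77, 1022 and 14.3 CPM in adjacent lung and 23.6, 433 and 1.71 CPM in tumour. Ighg2b was the only constant gene with a value above 0 (0.96 ± 1.31). The log2 fold changes of the others were -2.04 (Ighg2c), -2.53 (Ighg3), -3.31 (Ighe), -1.20 (Iglc1), -1.83 (Iglc2) and -2.86 (Iglc3). Reads of the near-identical IgG and lambda copies could have been split between them.

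Signals that place and sustain these cells were lower or did not pass. Of 12 tested homing and lymphoid tissue genes (of 14), 3 fell and none rose, with a median of -2.16 (4 fell in the blocked fit). Cxcl12, a chemokine that retains plasma cells, had 346, 198 and 369 CPM in adjacent lung and 33.5, 56.8 and 21.6 CPM in tumour (-3.03 ± 0.47, edgeR adjusted p = 0.0123). S1pr1, a receptor for exit from tissue that endothelium also carries, had 486, 157 and 129 CPM in adjacent lung and 36.0, 28.6 and 22.2 CPM in tumour (-3.15 ± 0.58, adjusted p = 0.0183). Both lost the call without tumour 102 (0.0530 and 0.0578), and S1pr1 also without tumour 224 (0.0684) or both of mouse 217 (0.0599). Endothelial markers (4 genes) summed to 1614 to 2924 CPM in adjacent lung and 308 to 367 CPM in tumour, and 4 of the 4 fell (1 to 4 with 1 library left out). Their part in the values of Cxcl12 and S1pr1 was not tested.

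None of 9 survival factors and receptors passed in edgeR (median -1.54). At an unadjusted p under 0.05 there were 4, all lower, against 24% of all genes in either direction. DESeq2 called 2, against 15.8% of all genes. With the mouse as a block 1 fell, near the share of all genes that fell there (9.34%). That gene, Tnfrsf13b (blocked edgeR adjusted p = 0.0419), encodes the receptor TACI and was named after its values were seen. Tnfsf13b, or BAFF, the survival factor of B cells, had 14.3, 15.6 and 13.0 CPM in adjacent lung and 4.72, 9.63 and 3.28 CPM in tumour, without overlap (-1.28 ± 0.47, edgeR adjusted p = 0.140). Tnfsf13, or APRIL, which binds BCMA, had a log2 fold change of -1.03 ± 0.55 (adjusted p = 0.320). None of 3 antibody transport genes passed in edgeR or DESeq2, and 0 had an unadjusted p under 0.05. Pigr, which carries polymeric IgA across the epithelium, had 113, 175 and 197 CPM in adjacent lung and 216.5, 49.9 and 51.8 CPM in tumour (-0.61 ± 0.61, adjusted p = 0.632). Like Igha and Jchain, it was higher in the tumour of mouse 102 and lower in the tumours of mice 217 and 224. Fcgrt, the receptor that recycles IgG, had a log2 fold change of -0.69 ± 0.30 (adjusted p = 0.211).

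Summed markers of T cells, natural killer cells and both kinds of dendritic cell, and those of all leukocytes, were also lower in the tumour of each mouse. Alveolar macrophage markers (5 genes) summed to 406, 7737 and 7319 CPM in adjacent lung and 2087, 1166 and 824 CPM in tumour, higher in the tumour of mouse 102. Mast cell and basophil markers (4 genes) summed to 1.18, 11.2 and 2.31 CPM against 0.782, 2.45 and 5.01 CPM, higher in the tumour of mouse 224. Leukocyte markers (5 genes) summed to 442, 1313 and 1378 CPM in adjacent lung and 388, 354 and 299 CPM in tumour of mice 102, 217 and 224, and 1 of 5, Ptprc, fell (2 in the blocked fit). Over all genes 7.18% fell. With 1 library left out, a leukocyte marker fell only without adjacent 102, and none fell without both libraries of mouse 217. T cell markers (7 genes) summed to 33.0, 113 and 48.7 CPM against 19.7, 48.7 and 8.45 CPM. Of these 0 passed in edgeR, 1 had an unadjusted p under 0.05 (24% of all genes did), and 1 was called by DESeq2 and 1 in the blocked fit. Natural killer cell markers (5 genes) summed to 19.5 to 26.8 CPM in adjacent lung and 1.36 to 3.33 CPM in tumour, and 3 fell. None of them fell when any 1 adjacent library was left out, 1 or 2 fell when any 1 tumour was, and 1 fell without both libraries of mouse 217. Dendritic cell markers (5 genes) summed to 75.1 to 98.6 CPM against 14.0 to 22.0 CPM, and 2 fell (0 to 3 with 1 library left out). Plasmacytoid dendritic cell markers, a type that shares Spib and other genes with B cells, summed to 93.1 to 211.9 CPM against 55.8 to 90.5 CPM. Most of that sum was Bst2 (77.4 to 198 CPM against 53.2 to 83.6 CPM), and the AT2 libraries also summed to 36.8 to 45.1 CPM. Of 5 tested, 0 passed in edgeR, 3 had an unadjusted p under 0.05 (against 24% of all genes), 3 were called by DESeq2 and 1 in the blocked fit. The part of these cell types in the values of the 9 genes was not tested.

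Across the 6 lung libraries, which are 3 tumour and adjacent pairs and share the difference between tissues, the B cell genes Cd79a, Ms4a1 and Pax5 followed one another (Pearson r of log2 CPM 0.977, 0.964 and 0.972). Cd79b followed them less closely (0.649 to 0.776). Among the plasma cell genes, Jchain and Mzb1 had an r of 0.862, Jchain and Tnfrsf17 0.613, and Mzb1 and Tnfrsf17 0.806. With the 5 B cell genes, Jchain had 0.425 (Cd22) to 0.666 (Cd79a). Mzb1 had 0.724 (Cd22) to 0.884 (Cd79a) with them, and Tnfrsf17 had 0.567 (Cd22) to 0.924 (Ms4a1). Pairs within the plasma cell class and pairs between the classes thus overlapped in r. Of 13590 other genes compared with the mean of the 5 B cell genes, the most alike were Gimap7 (r = 0.997), Arhgap45 (0.996), Gimap3 (0.993), Tnfrsf13c (0.992) and Spib (0.991). Tnfrsf13c encodes the BAFF receptor and Spib a transcription factor of B cells, and Gimap7 and Gimap3 encode GTPases of lymphocytes. For the mean of the 3 plasma cell genes they were Emc2 (0.995), Fcrls (0.993), Reep5 (0.993), Gngt2 (0.986) and Mgp (0.983). With 6 libraries, 110 genes had an r over 0.95 for the B cell mean and 46 for the plasma cell mean, so these lists are descriptions of 6 values each.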

How the data were processed

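Poly-A RNA was sequenced from 12 mouse libraries in 4 groups of 3, and the 2 tables deposited by the authors (lung, and AT2 cells) hold raw counts per gene, not normalised. HISAT2, StringTie 1.3.3b, Trimmomatic 0.39, DESeq2 1.28.1 and FastQC are named in the submitters' processing notes, with build GRCm38. How alignments were counted, with which strand setting and annotation, is not given in the sources used here. Per the labels' protocols the kit was NEBNext Ultra, which does not mark strand. Identifiers were named with GENCODE M21: 1035 of 56262 in the lung table (0.0388% of counts) and 37 of 54532 in the AT2 table (0.00383%) had no name, and each table was normalised and tested alone.

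Genes kept by filterByExpr were tested with edgeR 4.0.16 (TMM, quasi-likelihood, R 4.3.3, group as the only term, Benjamini-Hochberg over all tested genes, threshold 0.05). DESeq2 1.42.0 and limma 3.58.1 were also loaded, DESeq2 as an alternative. CPM are TMM-scaled counts, class means use log2 CPM with a prior count of 2, and each ± after a log2 fold change is its standard error. Floors of 3 counts cover counting error only. The fits were tested on simulated data that held no effect shared by the samples of a mouse, so the block was not tried on paired values. Tumour and adjacent samples with 1 mouse number came from 1 animal, and their deviations from the group means correlated (r = 0.273, 0.459 and 0.366), so the numbers pair them, and a blocked fit is reported where it changes the call of a named gene or the count of a list. Libraries within a group differed beyond counting noise (chi-square per degree of freedom 7.23 to 1160).

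The 9 genes, the lists and the tests were chosen with earlier results of these data known. From each list up to 3 genes higher and 3 lower with the smallest adjusted p and a mean of at least 1 CPM are named, or, where none passed, up to 2 of the highest CPM. All constant genes over 1 CPM and the 5 genes most alike to each class are also named, except 2 list genes that are not reported here. Ciliated cell markers were summed too (3.21 to 8.82 CPM in tumour, 225 to 395 in adjacent lung). Alternatives were other scalings, no filter, DESeq2, the mouse block, and fits without each library or mouse 217.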

Additional observations from a re-analysis of the deposited data

How the results depend on the processing

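The number of the 9 genes that passed in lung was 2. It was 4 with library totals alone (Cd79a, Ms4a1, Pax5 and Cd22), where 11.2% of all genes passed. With no filter it was 1 (Pax5), against 5.05% of a larger set of genes. Without both libraries of mouse 217 it was 1 (Ms4a1), against 4.13%. It was 5 with the DESeq2 Wald test, against 15.8%, and 0 to 4 when 1 library was left out, against 2.88% to 8.74%. Of these fits, it was 0 without adjacent 217, adjacent 224, tumour 102 or tumour 224, 2 without adjacent 102 and 4 without tumour 217. With the mouse as a replicate block it was 2, and beside the changes of call given above the block moved no count of the 9 genes. Over all lung genes, 2007 passed. The count was 2233 with library totals alone, 1557 with no filter, 2980 with the replicate block, 847 without mouse 217, 3718 with DESeq2 and 598 to 1854 with 1 library left out. Library totals alone moved the median log2 fold change of all genes from 0.04 to -0.18 and the share of higher calls from 28.5% to 17.6%. That share was also 17.6% without mouse 217 and 37.3% with the block.

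Between AT2 groups 0 genes passed, 17 with no filter, 1 with DESeq2 and 0 to 1 with 1 library left out, and 0 of the 9 genes passed in any of these. No paired analysis was possible there because wild-type and deleted mice share no number. The tumour minus adjacent difference ranged, with 1 mouse left out, over -3.44 to -2.13 for the B cell class and -2.66 to -1.64 for the plasma cell class. The difference between the classes ranged over 0.493 to 1.06. With all mice it was smaller with a prior count of 0.5 or from summed CPM, as given above, and 1.86 with Cd79b and Cd22 left out.

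Leaving out 1 library moved the log2 fold change of Jchain over -1.89 to 0.44, Igha over -1.95 to 0.34, Igkc over -2.91 to 0.58, Ighg1 over -4.86 to 4.08, Ighg2c over -5.12 to 1.35, Ighe over -7.43 to 0.47, Iglc1 over -3.04 to 0.87 and Iglc2 over -3.48 to 0.32, each above 0 only without adjacent 217. Ighg2b ran from -1.51 (without tumour 217) to 2.72. Without both libraries of mouse 217 the sign turned for Jchain (0.19), Ighg1 (0.40) and Iglc2 (0.51). In AT2 cells Pax5 ran from -0.36 to 1.65 and Cd22 from -0.61 to 1.12, both below 0 without deleted 175 or wild-type 177. None of these values passed the test in the main comparison, and the cause was not tested.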
